A study of Mus musculus with 57 samples.

Results

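Livers of 4 mice given alpha-naphthyl isothiocyanate (ANIT) by gavage were compared with livers of 13 mice given the gavage vehicle, 24 h after administration. These 17 libraries come from a series of 57, which holds 40 livers exposed to 1 of 7 toxicants. The groups were taken from the sample descriptions, as the mice named ANIT 1 to 4 and the mice named Ctrl. All were wild-type male C57BL/6JJcl mice, 6 weeks old at the start, acclimatised for 1 week and fasted for 12 h. Control mice received 0.5% methylcellulose. The labels give an administration volume of 10 µL/kg for all groups and no dose by mass. They name methylcellulose, saline and corn oil as vehicles without saying which one carried ANIT, and no control received corn oil. If ANIT was given in corn oil, effects of the compound and of the vehicle cannot be told apart. A piece of the perfused left lateral lobe gave the RNA, and libraries were made with a stranded mRNA kit.

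ANIT is a classic bile duct toxicant of rodents. It is conjugated with glutathione in hepatocytes, carried into bile and released there, where it injures the cells that line the bile ducts, and bile flow then falls. A cholestatic liver is known to lower the synthesis of bile acids from cholesterol, to lower their uptake from blood and to raise transporters that return them to blood. Injured hepatocytes also use the integrated stress response, in which ATF4 switches on amino acid and transport genes, the unfolded protein response of the endoplasmic reticulum, and the antioxidant response run by NRF2. Plasma cytokines add the acute phase response, in which hepatocytes secrete defence proteins such as serum amyloid A.

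The unit of measurement is the estimated count per gene. Levels below are CPM, counts per 1000000 of the library total, scaled by the trimmed mean of M values (TMM). Total estimated counts ranged from 17660023 to 23216871 in the ANIT libraries and from 15188909 to 28093184 in the gavage libraries, and 15637 to 17748 genes reached an estimated count of 1. Over 13043 genes with a single transcript, a longer transcript went with a smaller lowest value (Spearman's rho -0.760 across genes), so the counts appear to be length-corrected. The sources used here do not state it. A gene is called below when its adjusted p is under 0.05 in edgeR's quasi-likelihood test with Benjamini-Hochberg adjustment over all genes tested. Within a group the labels tell the mice apart by number alone, so p-values measure the spread between these samples. All ANIT mice are numbered 1 to 4, and the gavage mice numbered 1 to 4 stood apart from the other 9 in several gene groups. Gene results against the gavage mice were therefore also taken from a fit that carries the number range (1 to 4, or above 4) as a covariate, called the number-adjusted fit here. It was not run for the mitochondrial share or for the comparison of ANIT with another toxicant. For the genes named, its value or adjusted p is given where it changed the call or moved a called value by over 1.5-fold. Its ANIT estimate rests on the 4 gavage mice numbered 1 to 4. Gavage mouse 18 had the highest acute phase and neutrophil levels of the controls (2082 CPM for Saa1). Among the ANIT mice, mouse 1 was most often nearest the controls and mouse 3 most often farthest in the genes called in both fits. In some gene lists described below, such as the NRF2 list, mouse 1 stood farthest. Of the 1115 genes called higher in both fits, mouse 1 was the lowest of the 4 in 47.3% and mouse 3 the highest in 52.6%. Of the 1254 genes called lower in both fits, mouse 1 was the highest in 47.1% and mouse 3 the lowest in 51.0%. Mitochondrial transcripts made up 16.4% ± 3.34 of the counts (SD, n = 4) against 15.2% ± 4.15 (SD, n = 13). The difference of 1.17 percentage points did not exceed the spread (exact permutation test, two-sided, p = 0.629). Against the gavage mice numbered 1 to 4 it was -2.52 points (exact permutation p = 0.286).

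Many genes were called in each direction after ANIT, and the balance between rises and falls depended on the scaling. Of 14072 genes tested, 3967 were called (28.2%), 1965 higher (14.0%) and 2002 lower (14.2%). At least 1 log2 unit of change was reached by 593 of the higher genes (4.21% of those tested) and by 1087 of the lower genes (7.72%). The number-adjusted fit called 2684 genes (19.1%), 9.17% higher and 9.90% lower, and 2369 genes (16.8%) were called by both fits in the same direction, 1115 higher (7.92%) and 1254 lower (8.91%). Against the gavage mice numbered 1 to 4 alone, 1688 of 12320 genes were called (13.7%), 845 higher (6.86%) and 843 lower (6.84%). In 562 genes (3.99%) all ANIT mice lay above every gavage mouse, and in 697 (4.95%) all lay below. Scaling by the library total in place of TMM shifted the median of all genes by -0.22 on the log2 scale and moved the share of calls that were higher from 49.5% to 23.7%, at 822 higher and 2651 lower. The gene lists used below, 33 for functions and 11 for cell types, name 827 symbols, of which 818 were in the table and 766 passed the filter on low counts. Log2 fold changes below are relative to the TMM scale, with their standard errors.

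The genes with the largest rises included a hormone, lipid droplet and metal-binding proteins and a secreted lipocalin. Fgf21, a fasting and stress hormone made by hepatocytes, stood at 25.9, 87.9, 233 and 48.6 CPM in ANIT mice 1 to 4, against 0.163 to 2.9 CPM (median 0.434) in the gavage mice. All ANIT mice lay above every control, with a rise of 7.17 ± 0.57 in log2 units (edgeR adjusted p = 2.94e-07), or 8.81 in the number-adjusted fit, and mouse 3 was highest. Without mouse 3 the fold change was 6.31. Cidec, which fuses lipid droplets, stood at 21.9, 50.3, 51.7 and 52.9 CPM against 0.136 to 1.31 CPM (median 0.705). Mouse 1 was the lowest of the 4 and the groups did not overlap (5.95 ± 0.35, edgeR adjusted p = 1.02e-08). The metallothioneins Mt2 and Mt1, which bind zinc and other metals, rose by 5.73 ± 0.65 and 5.09 ± 0.47 and stayed called in the number-adjusted fit (7.35 and 5.55). Without gavage mouse 18 the rise of Mt2 was 6.34. Mt1 reached 1193, 8664, 8818 and 4434 CPM, with mouse 1 again the lowest but above the highest control, gavage mouse 18, at 633 CPM. Lcn2, lipocalin 2, which binds bacterial siderophores, stood at 1656, 1628, 3052 and 1691 CPM against 8.0 to 661 CPM (median 46.1). The high controls were gavage mice 18, 15 and 17. Lcn2 rose by 4.14 ± 0.79 (4.88 without gavage mouse 18) and by 7.0 in the number-adjusted fit. Mfsd2a, a transporter of lysophospholipids, rose by 3.88 ± 0.26. Inhbb, the inhibin beta B subunit of activin B, rose by 3.58 ± 0.42, Derl3, which takes part in the degradation of misfolded proteins, by 3.54 ± 0.50, and Rasd1, a Ras-related protein induced by glucocorticoids, by 4.63 ± 0.47. The number-adjusted rises of Inhbb and Rasd1 were 4.73 and 5.22. Chd9, a chromatin remodeller, rose by 3.67 ± 0.31, to 869, 2668, 2029 and 588 CPM against 51.98 to 231 CPM (median 130.1). E030018B13Rik had the largest fold change (8.4 ± 0.57). Its controls held at most 0.229 CPM each, so that the size of the fold rests on a few counts, while the ANIT mice stood at 8.99, 12.9, 10.1 and 19.99 CPM. The value was 9.03 without gavage mouse 2 and 6.85 in the number-adjusted fit.

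The 12 genes with the largest falls included Hsd3b5 and Selenbp2 of the growth hormone list and Scd1 and Srebf1 of the fatty acid synthesis list, beside non-coding RNAs and genes of other functions. Hsd3b5, a steroid enzyme of male mouse liver that depends on pulses of growth hormone, stood at 0.40, 0, 0 and 0 CPM in the ANIT mice, against 18.4 to 135 CPM (median 86.2) in the controls. Counts were at 0 in 3 of the 4 mice, so the fitted fold change of -9.85 (edgeR adjusted p = 4.41e-07) rests on the few counts of mouse 1. Selenbp2, a selenium-binding protein, stood at 11.7, 8.19, 8.96 and 3.7 CPM against 157 to 544 CPM (median 332), and fell by 5.42 on the log2 scale. Car3, a carbonic anhydrase abundant in lipid-storing cells, stood at 28.04, 96.7, 60.1 and 30.7 CPM against 1372 to 2621 CPM (median 1738), and fell by 5.12. In each of the pair the highest ANIT mouse lay far below the lowest control. Scd1, the desaturase that makes oleic acid, stood at 204, 153, 122 and 233 CPM against 1229.5 to 6469 CPM (median 2175) (fell by 3.92, number-adjusted 4.58). Srebf1, which encodes the factor SREBP1 that drives fatty acid synthesis, stood at 43.2, 24.2, 31.7 and 15.1 CPM against 238 to 555 CPM (median 401) (fell by 3.79, edgeR adjusted p = 2.56e-07). Aqp8, a water channel of the hepatocyte, fell by 3.43, Nrep by 3.34 (number-adjusted 4.07) and Fam198a by 4.41 (5.79 without mouse 1). The long non-coding RNA Gm35164 fell by 7.06, with controls spread over 0.248 to 63.7 CPM (median 3.3), by 7.75 without ANIT mouse 4 and by 8.2 in the number-adjusted fit. Tbx3os1, an antisense transcript at Tbx3, fell by 5.29 (5.89 without mouse 2), and 9030619P08Rik, annotated as a pseudogene, by 3.83. Whether strand was used in counting is not given in the sources used here, so reads of Tbx3 and of Tbx3os1 may not be separated. Ifi27l2a, an interferon-inducible gene, fell by 3.46, but by 1.84 in the number-adjusted fit.

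**Figure D1:**
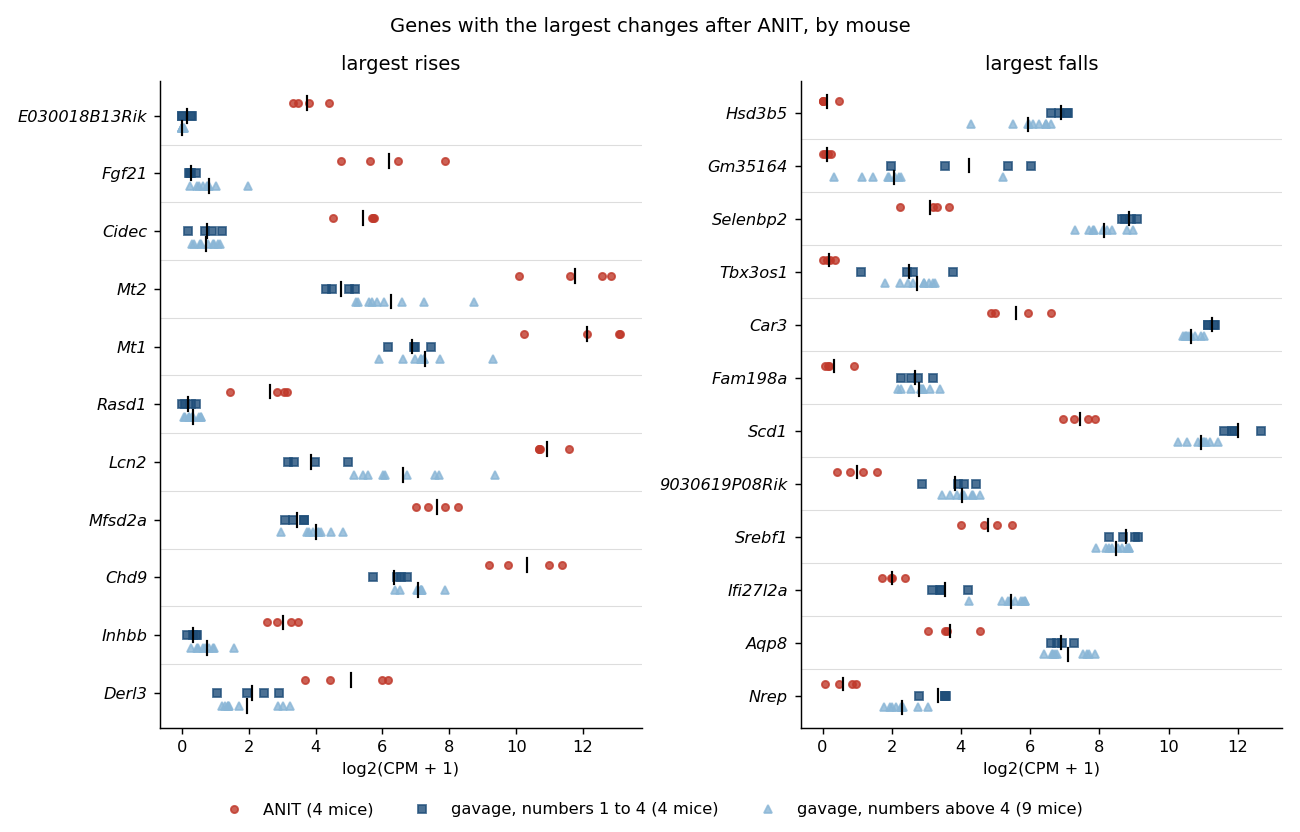
Levels of 11 of the 12 genes that rose most and of the 12 that fell most, as log2(CPM + 1) on the horizontal axis, 1 point per mouse and a black tick at each group's mean. The 4 ANIT mice (red circles) lie beyond all 13 gavage mice (dark squares for numbers 1 to 4, light triangles for higher numbers) in every gene shown, as the rule for these genes required, and the gavage ranges differ from each other in Lcn2, Mt2, Scd1 and Ifi27l2a.

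Genes of bile acid synthesis and transport moved in both directions, and several of them varied widely among the 4 ANIT mice. In the list for bile acid synthesis and the bile acid receptor FXR, 2 of 18 members were called higher and 6 lower, beside 14.0% and 14.2% of all genes tested, and all 8 stayed called in the number-adjusted fit. The counts were 4 and 4 without ANIT mouse 1, 1 and 5 without mouse 2, 1 and 3 without mouse 3 and 1 and 3 against the gavage mice numbered above 4 alone. Cyp7a1, the rate-limiting enzyme of bile acid synthesis, stood at 0, 12.6, 9.36 and 43.3 CPM in ANIT mice 1 to 4, against 13.2 to 515 CPM (median 77.4) in the controls. Mouse 1 was at 0 and mouse 4 overlapped the controls numbered above 4, while the controls numbered 1 to 4 held 155 to 515 CPM. The log2 fold change was -2.95 ± 1.06 (edgeR adjusted p = 0.0459) and -4.07 (adjusted p = 0.00906) in the number-adjusted fit. The call was lost without ANIT mouse 1 (adjusted p = 0.0654), 2 (0.112) or 3 (0.135) or any gavage mouse numbered 1 to 4, and against the gavage mice numbered above 4 alone (-1.88, adjusted p = 0.135). Without ANIT mouse 4 the value was -4.1. Cyp8b1, which sets the share of cholic acid, was not called at 2.8, 269, 65.3 and 453 CPM, with mouse 1 far below the others, against 127 to 401 CPM (median 234). Cyp2c70, which makes the muricholic acids of mice, stood at 188, 151, 200.4 and 38.8 CPM against 179 to 1086 CPM (median 419), and fell by 1.67, or by 2.28 in the number-adjusted fit. Hsd3b7, an early enzyme of the pathway, fell by 1.35 with no overlap between the groups, at 151, 226, 142 and 185 CPM against 274 to 526 CPM (median 465). Nr0b2, which encodes the repressor SHP, a target of FXR that represses Cyp7a1, rose by 1.18 ± 0.35 (edgeR adjusted p = 0.0181). It stood at 155, 178, 241 and 28.04 CPM against 30.1 to 104 CPM (median 68.4), so that mice 1 to 3 were above all controls and mouse 4 below them, and its call was lost without mouse 2 (adjusted p = 0.0604) or mouse 3 (0.139). Acox2, a peroxisomal oxidase that shortens the bile acid side chain, rose by 0.71.

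Transporters that take bile acids and organic anions from blood were lower for 3 of 8 members and higher for 1, in both fits. Over all genes tested 14.0% were higher and 14.2% lower, or 7.92% and 8.91% in both fits, and the transporter lists are small. Slc22a7, the organic anion transporter OAT2, stood at 2.86, 7.58, 3.85 and 2.96 CPM against 17.6 to 44.7 CPM (median 25.7), and fell by 2.71 (edgeR adjusted p = 8.81e-06). Slco1a1 fell by 2.63 (by 3.45 without mouse 1, which overlapped the lowest control), while the related Slco1a4 rose by 1.01. Slc10a1, the main sodium-dependent bile acid importer NTCP, was not called (0.48 ± 0.20, edgeR adjusted p = 0.0882), but it was called higher against the gavage mice numbered above 4 alone (0.69, adjusted p = 0.0143) and without gavage mouse 1 (0.56, 0.0293), at 477, 674, 445 and 896 CPM against 278 to 718 CPM (median 437). Of 6 tested transporters that export to blood, 3 rose and 1 fell in both fits. Slc51b, the beta subunit of the bile acid exporter OST and a target of FXR, stood at 66.6, 5.22, 29.99 and 0.987 CPM against 0.343 to 6.28 CPM (median 1.86). Mice 1 and 3 were far above all controls, and mice 2 and 4 lay within their range, for a fold change of 3.53 ± 0.66 (edgeR adjusted p = 7.51e-04), 4.77 in the number-adjusted fit and 2.45 without mouse 1. Abcc4, which exports sulfated bile acids with glutathione, stood at 4.66, 2.4, 1.84 and 2.96 CPM against 0.458 to 1.31 CPM (median 1.01), above every control, and rose by 1.55 ± 0.23. Abcc3 rose by 0.53 ± 0.13 and Abcc6 fell by 1.15. Among 11 exporters into bile 3 rose and 3 fell, and the number-adjusted fit kept 3 and 2 of them. Abcb11, the bile salt export pump, stood at 264, 50.02, 110.1 and 24.98 CPM against 66.5 to 139 CPM (median 113) and was not called (0.08 ± 0.36, edgeR adjusted p = 0.893). Mouse 1 was above and mice 2 and 4 below every control. Without mouse 1 its difference was -0.78 and with library total scaling -0.16. Abcc2, the exporter of glutathione and bilirubin conjugates, was not called either (-0.05 ± 0.17). Abcb4, the phosphatidylcholine floppase, rose by 0.87 ± 0.16 with no overlap, at 163, 67.4, 76.7 and 73.99 CPM, and Atp8b1, a phospholipid flippase, by 1.01 ± 0.23. Abcb1a, a P-glycoprotein, rose by 2.79 ± 0.60 (number-adjusted 3.64), but its call was lost without mouse 1 (1.48, adjusted p = 0.0763). Abcg5, which with Abcg8 exports sterols, fell by 1.15. Abcg8 fell by 0.89, a call lost in the number-adjusted fit (-0.74, adjusted p = 0.175) and without ANIT mouse 2 (0.117), 3 (0.151) or 4 (0.121).

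**Figure D2:**
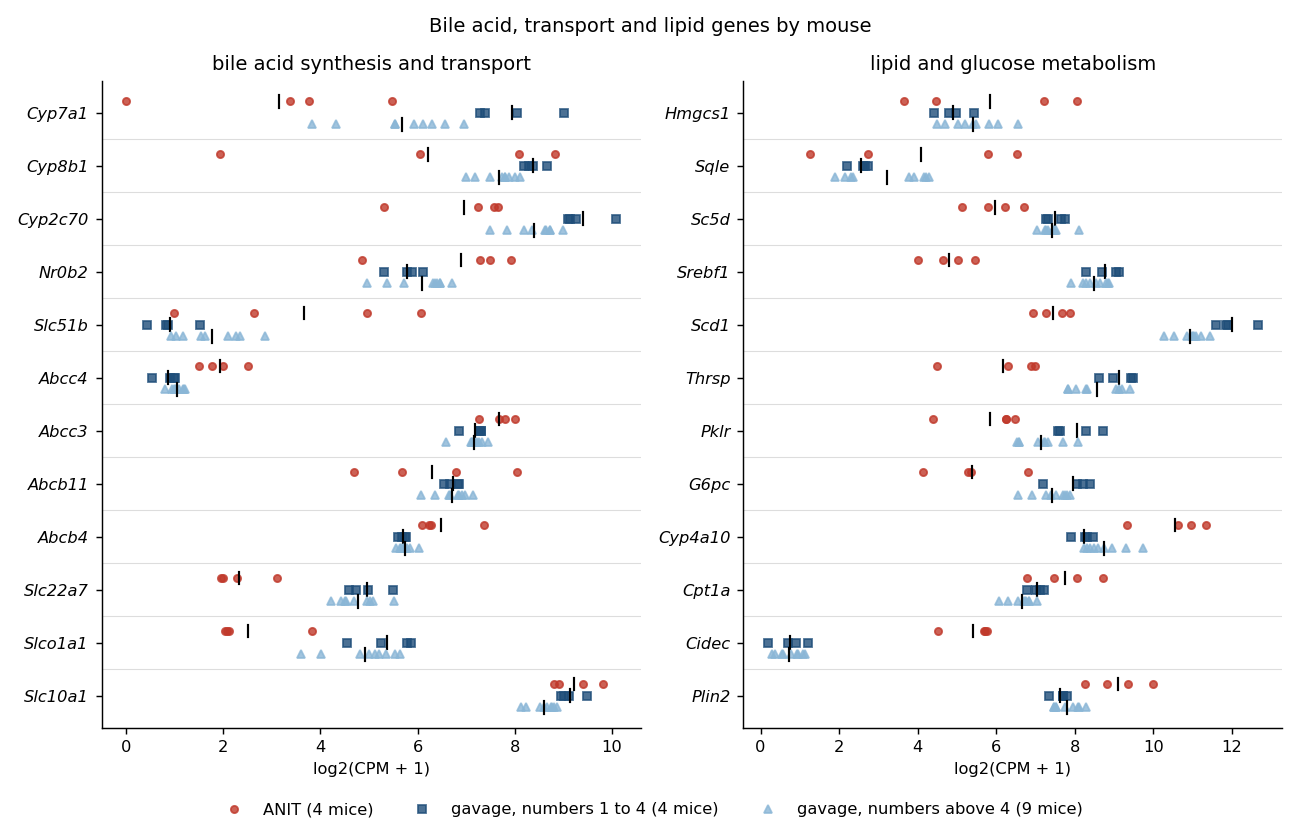
Levels of 12 bile acid and transport genes and 12 lipid and glucose genes as log2(CPM + 1), 1 point per mouse with a black tick at each group's mean. The ANIT mice (red) spread widely in Cyp7a1, Cyp8b1, Slc51b, Abcb11 and in the cholesterol genes Hmgcs1 and Sqle, and lie together below the controls in Slc22a7, Srebf1 and Scd1.

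Lipid metabolism showed lower fatty acid synthesis genes, higher lipid droplet genes, and cholesterol genes that varied among the ANIT mice. Of 18 genes of fatty acid synthesis 13 were lower and 0 higher, 11 of them in both fits, with 5 at an adjusted p of 0.05 or more, beside 14.2% of all genes tested that were lower and 8.91% in both fits. The list's median log2 fold change was -1.42 beside -0.01 over all genes tested. Besides Srebf1 and Scd1, Thrsp, which responds to thyroid hormone and carbohydrate, fell by 2.43, and Mlxipl, the carbohydrate-sensing factor ChREBP, by 1.38, both with no overlap. Pnpla3, a lipase of lipid droplets that SREBP1 induces, had the largest fall of the list at 3.97, from a control median of 4.18 CPM to 0.866, 0.188, 0.517 and 0 CPM. Its call was lost without ANIT mouse 2 (adjusted p = 0.0622), 3 (0.0554) or 4 (0.0557), and the fall was 4.68 without mouse 1. Among 12 lipid droplet proteins 6 rose and 0 fell, in both fits, beside 14.0% of all genes tested that were higher and 7.92% in both fits. Plin2, the coat protein of hepatocyte droplets, stood at 307, 649, 1017 and 451 CPM against 162 to 310.4 CPM (median 206) and rose by 1.48 ± 0.21. Mouse 1 lay just under the highest control and the others above it. Plin4 rose by 2.74 ± 0.34 and Pnpla2, the triglyceride lipase ATGL, by 1.47 ± 0.19. For fatty acid oxidation and ketogenesis, 15 of 30 members rose and 2 fell, 11 and 1 of them in both fits, beside the same shares over all genes. Cyp4a31, a fatty acid omega-hydroxylase, stood at 9.19, 60.8, 59.2 and 109 CPM, with mouse 1 within the controls (7.73 to 24.00 CPM, median 12.3), and rose by 2.18 ± 0.36. Cyp4a10 and Cyp4a14, close relatives of it whose reads may be shared, rose by 2.05 ± 0.29 and 1.22 ± 0.31 (the latter by 1.96 in the number-adjusted fit). Cpt1a, which admits fatty acids to mitochondria, rose by 1.14 ± 0.23, while Fabp1, the liver fatty acid-binding protein, fell by 1.27 with no overlap. Mouse 1 stood apart in this list. It exceeded the control median in 7 of 30 members, against 27, 25 and 25 for mice 2, 3 and 4, and the number called higher was 22 without mouse 1, 9 without mouse 4 and 6 against the gavage mice numbered 1 to 4 alone.

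Cholesterol synthesis genes differed among the ANIT mice. Sqle, squalene epoxidase, stood at 91.9, 5.65, 54.00 and 1.38 CPM in mice 1 to 4, against 2.7 to 18.5 CPM (median 5.28). Hmgcs1, which encodes an earlier enzyme of the pathway, stood at 263, 21.1, 148 and 11.6 CPM against 20.3 to 92.6 CPM (median 36.1). In both genes mice 1 and 3 lay above every control, mouse 2 lay inside the control range and mouse 4 below it. Over the 24 members of the list, mice 1 and 3 exceeded the control median in 21 and 19, and mice 2 and 4 in 3 and 1. The calls varied with the mice used, with 9 higher and 3 lower against all controls (14.0% and 14.2% of all genes tested) and 3 and 3 in both fits (7.92% and 8.91%), and without mouse 1 or mouse 3 the number called higher was 2 or 3. Sqle rose by 2.12 ± 0.66 (number-adjusted 2.95), a call lost without mouse 1 (1.21, adjusted p = 0.228) or mouse 3 (0.0893), and Hmgcs1 by 1.44 ± 0.52, a call lost in the number-adjusted fit (1.89, adjusted p = 0.072), without mouse 1 (0.56, adjusted p = 0.474) without mouse 3 (0.151) and without any gavage mouse numbered 1 to 4. Sc5d, a late enzyme of the pathway, fell by 1.42 and lay below every control in all 4 mice.

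Genes of the integrated stress response were mostly higher. Of 24 tested members of the ATF4 integrated stress response list 16 rose and 1 fell, 14 and 1 of them in both fits (7.92% and 8.91% of all genes tested), and the median log2 fold change was 1.14. Against the gavage mice numbered 1 to 4 alone 10 were higher and 0 lower. Without ANIT mouse 3 the counts were 11 higher and 1 lower, and the median was 0.74. Chac1, which degrades glutathione, stood at 4.46, 32.98, 187 and 14.1 CPM against 0.333 to 6.33 CPM (median 2.25). Mouse 3 was far above the others and mouse 1 lay within the control range, for a fold change of 4.36 ± 0.72 (edgeR adjusted p = 2.72e-04), 5.48 in the number-adjusted fit and 2.57 without mouse 3. Asns, asparagine synthetase, rose by 2.16 ± 0.33 and Psat1, of serine synthesis, by 2.99 ± 0.41 (1.96 without mouse 3), both above every control. Mthfd2, of mitochondrial folate metabolism, rose by 2.46 ± 0.44 (1.06 without mouse 3), Sesn2, which restrains mTORC1, by 1.9 ± 0.36 (0.75 without mouse 3), and Ddit3, the factor CHOP, by 1.5 ± 0.28. Atf4 itself rose by 1.12 ± 0.23. Trib3 rose by 1.91 ± 0.47 and Atf3 by 2.3 ± 0.59 (number-adjusted 2.62 and 2.99), calls lost without mouse 3 (1.23 and 1.52, adjusted p = 0.0992 and 0.114). Nupr1, a stress-induced chromatin protein, rose by 1.8 ± 0.41, a call lost without mouse 1 (1.13, adjusted p = 0.0562). Vldlr, a lipoprotein receptor, was the member that fell, by 0.92, a call lost without mouse 2 (adjusted p = 0.051) or 4 (0.0516). On the mean of log2(CPM + 1) over the list, mouse 3 stood 2.20 above the controls and the other mice 0.59 to 0.87.

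Promoter sequences of this list were searched for the composite site of ATF4 and C/EBP factors, TGATGNAAT on either strand, because Fgf21 led the list. The windows are RefSeq sequences of build GRCm38.p6, from 250 bases before to 50 after each start. A match was found in 2 of 24 listed genes with a window (8.33%), Fgf21 and Nupr1, beside 1.08% of all 27025 genes in the table. The matches began 140 and 111 bases before the start. Both windows lie on the minus strand of chromosome 7, Fgf21 at chr7:45615441-45615740 and Nupr1 at chr7:126625421-126625720, and the match, in capitals, reads on the opposite strand to the motif. Neither overlapped a match of the other motifs searched.
Fgf21: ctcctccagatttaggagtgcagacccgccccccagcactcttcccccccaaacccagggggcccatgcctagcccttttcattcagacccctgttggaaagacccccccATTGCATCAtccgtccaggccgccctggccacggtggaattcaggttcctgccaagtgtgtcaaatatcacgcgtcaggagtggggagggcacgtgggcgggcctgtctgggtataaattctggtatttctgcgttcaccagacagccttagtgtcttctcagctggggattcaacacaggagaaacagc
Nupr1: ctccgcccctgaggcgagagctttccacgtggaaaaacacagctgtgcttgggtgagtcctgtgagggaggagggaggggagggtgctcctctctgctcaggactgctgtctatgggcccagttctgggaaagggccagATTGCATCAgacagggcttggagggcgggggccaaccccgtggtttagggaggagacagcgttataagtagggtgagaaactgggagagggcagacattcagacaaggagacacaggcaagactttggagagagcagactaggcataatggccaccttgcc

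Endoplasmic reticulum chaperones rose as a group, in 17 of 20 members with 0 lower, 14 of them in both fits, beside 14.0% and 7.92% of all genes tested, at a median log2 fold change of 1.07. Hspa5, the chaperone BiP, stood at 362, 783, 1355 and 698 CPM against 166 to 434 CPM (median 293). Mouse 1 lay inside the control range and mice 2 to 4 above it (1.39 ± 0.25, edgeR adjusted p = 5.67e-04). Xbp1, the transcription factor of the unfolded protein response, stood at 169, 368, 399 and 299.8 CPM against 107 to 140.4 CPM (median 121), above every control, and rose by 1.34 ± 0.14. Derl3 stood at 11.9, 70.9, 62.8 and 20.6 CPM against 1.09 to 8.46 CPM (median 2.24), again without overlap. Herpud1, of protein degradation at the endoplasmic reticulum, rose by 1.69 ± 0.36, Dnajb9 by 1.61 ± 0.34 and the calcium-binding chaperone Calr by 0.64 ± 0.11. Creld2 rose by 1.76 ± 0.38, with mouse 1 within the controls, and was not called in the number-adjusted fit (1.49, adjusted p = 0.0555). Mouse 1 exceeded all controls in 4 of the 20 members, against 17, 17 and 14 for mice 2, 3 and 4. Without mouse 3 the list had 13 members called higher and 0 lower, at a median of 0.77.

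Proteasome subunit genes rose almost throughout. Called higher were 29 of 31, all 29 in both fits and 21 with no overlap between groups, and the fold changes of all 31 were positive, from 0.29 to 1.06. Over all genes tested 14.0% were higher, 7.92% in both fits and 3.99% with no overlap. Psmc6, an ATPase subunit of the 19S cap, stood at 45.6, 42.2, 47.7 and 40.8 CPM against 14.3 to 34.8 CPM (median 20.02), and Psmd1, its largest non-ATPase subunit, at 53.2, 50.8, 63.2 and 59.2 CPM against 21.9 to 38.02 CPM (median 29.6). The 4 ANIT mice were close to each other and above every control in both genes, with fold changes of 1.06 ± 0.19 and 0.93 ± 0.13. With library total scaling the median of the list was 0.51 in place of 0.73. Psmb7 had the smallest called change (0.37 ± 0.13, edgeR adjusted p = 0.0395), a call lost without ANIT mouse 1, 2 or 3 or gavage mouse 1, 3 or 4 (adjusted p from 0.05 to 0.128). Cytosolic heat shock genes gave a mixed picture, with 4 of 16 higher and 1 lower, 1 and 1 of them in both fits, and 2 higher and 0 lower without mouse 2 and likewise without mouse 3. Hspb8, a small heat shock protein, rose by 0.98 ± 0.13 above every control. Its partner Bag3 rose by 1.08 ± 0.30, but not in the number-adjusted fit (0.54, adjusted p = 0.255), without mouse 2 (0.0556) or without mouse 3 (0.0969). Stip1, a co-chaperone, fell by 0.32, a call lost without any 1 of the ANIT mice (adjusted p from 0.0576 to 0.126) or gavage mouse 1, 3, 4 or 18.

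Antioxidant genes rose in 11 of 25 tested members of the NRF2 list, with 1 lower, 10 and 1 of them in both fits, beside 14.0% and 7.92% of all genes tested that were higher. Mouse 1 exceeded the control median in 21 of the 25 members, against 12, 14 and 12 for mice 2, 3 and 4, and mouse 4 lay below all controls in 8. On the mean of log2(CPM + 1) over the list, mice 1 to 4 stood 1.30, 0.15, 0.50 and 0.02 above the controls. Without mouse 1 11 were higher and 3 lower, and the median log2 fold change was 0.08 in place of 0.51. Nqo1, a quinone reductase, stood at 22.3, 16.99, 12.8 and 14.8 CPM against 4.28 to 7.96 CPM (median 5.96) and rose by 1.45 ± 0.16. Srxn1, sulfiredoxin, stood at 221, 54.7, 167 and 105 CPM against 16.2 to 43.6 CPM (median 27.6) and rose by 2.34 ± 0.28. Txnrd1, thioredoxin reductase, stood at 75.6, 89.1, 137 and 92.3 CPM against 39.7 to 57.6 CPM (median 45.7) and rose by 1.12 ± 0.12. In all of these the 4 ANIT mice lay above every control. Hmox1, heme oxygenase 1, rose by 2.82 ± 0.28 with mouse 3 highest at 525 CPM (2.02 without it), Cbr3, a carbonyl reductase, by 2.99 ± 0.33 (2.29 without mouse 1), Osgin1 by 2.3 ± 0.32 and Gsr, glutathione reductase, by 1.0 ± 0.13. Ces2g, a carboxylesterase, fell by 0.88. Glutathione S-transferases, often counted with this response, were higher in 1 of 22 and lower in 5, 1 and 4 of them in both fits. Over all genes tested 14.0% were higher and 14.2% lower, or 7.92% and 8.91% in both fits. Gstt2 rose by 1.48 ± 0.14, Gsta3 fell by 1.18 with no overlap and Gstm6 by 1.26 (1.88 without mouse 1). Mgst3, a microsomal enzyme, fell by 1.43 and was not called in the number-adjusted fit (-0.77, adjusted p = 0.0857). Mouse 1 differed from the others in this family. Gstm3 stood at 2732, 23.6, 75.5 and 12.4 CPM against 56.2 to 508 CPM (median 108), and Gsta1, whose reads may be shared with Gsta2, at 375, 6.02, 16.5 and 3.7 CPM against 5.21 to 83.8 CPM (median 21.9). Neither was called against all controls (Gsta1 was in the number-adjusted fit, 3.47, edgeR adjusted p = 0.0397), and without mouse 1 the values were -2.13 for Gstm3 (edgeR adjusted p = 0.0389) and -1.80 for Gsta1. Gstm3 was called higher without mouse 2 (2.53, adjusted p = 0.0355) or mouse 4 (2.53, 0.028). Without mouse 1 the list had 2 members called higher and 10 lower, beside 1962 higher and 2014 lower of all 14523 genes tested.

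The antioxidant response element, TGACNNNGC on either strand, was found in the promoter windows of 9 of 22 listed NRF2 genes (40.9%), beside 14.0% of all genes in the table. Srxn1 and Txnrd1, which lay above every control in all ANIT mice, and Abcc4 among the transporters were genes with a match whose level in each mouse is given above. The windows of the former pair, both of antioxidant enzymes, are shown as examples, with the match in capitals. The Srxn1 window lies on the plus strand of chromosome 2 at chr2:152105274-152105573, with the match starting 28 bases after the start. Txnrd1 has 3 windows in the table, and the 1 with a match lies on the plus strand of chromosome 10 at chr10:82858956-82859255, with the match 92 bases before the start. The sterol element TCACNCCAC was found in 1 of 16 listed cholesterol genes, Hmgcs1 (6.25%), beside 1.44% of all genes. A match describes letters in the window only.
Srxn1: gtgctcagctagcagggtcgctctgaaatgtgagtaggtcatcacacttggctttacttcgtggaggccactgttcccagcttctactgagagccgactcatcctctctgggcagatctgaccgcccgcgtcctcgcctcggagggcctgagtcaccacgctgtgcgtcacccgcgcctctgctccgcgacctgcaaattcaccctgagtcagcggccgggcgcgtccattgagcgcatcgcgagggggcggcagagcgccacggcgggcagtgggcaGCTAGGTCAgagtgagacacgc
Txnrd1: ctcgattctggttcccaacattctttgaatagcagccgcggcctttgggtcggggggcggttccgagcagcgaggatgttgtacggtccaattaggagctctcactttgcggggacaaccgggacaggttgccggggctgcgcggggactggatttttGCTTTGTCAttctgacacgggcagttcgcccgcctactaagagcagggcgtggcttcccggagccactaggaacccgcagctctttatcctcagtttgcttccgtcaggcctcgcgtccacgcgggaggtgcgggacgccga

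Of 15 tested targets of p53, 4 rose and 0 fell, all 4 in both fits, beside 14.0% and 14.2% of all genes tested. The counts were 1 higher and 1 lower without mouse 3, 5 and 1 without mouse 1, and 1 and 0 against the gavage mice numbered 1 to 4 alone and 3 and 1 against those above 4. Cdkn1a, which encodes the cell cycle inhibitor p21, stood at 69.3, 100.2, 134 and 55.03 CPM against 3.59 to 22.8 CPM (median 13.04), above every control, and rose by 2.84 ± 0.36 (number-adjusted 4.13). Mdm2 rose by 0.82 ± 0.20 and Btg2 by 1.76 ± 0.53 (number-adjusted 2.36), calls lost without mouse 3 (0.53 and 0.83, adjusted p = 0.0725 and 0.331). Cell cycle and replication genes were lower in 12 of 20 tested members and higher in 0, but 5 stayed called in the number-adjusted fit. Tk1, thymidine kinase, stood at 6.06, 4.42, 1.9 and 3.75 CPM against 28.8 to 55.4 CPM (median 35.3) and E2f1, a factor that starts replication, at 0.333, 0.282, 0.287 and 0.148 CPM against 1.31 to 2.05 CPM (median 1.6). Both lay below every control, with falls of 3.25 and 2.65 that held in the number-adjusted fit (-3.16 and -2.55). Aurkb, a mitotic kinase, fell by 3.43 (5.07 without mouse 3) from a control median of 0.759 CPM, and was not called in the number-adjusted fit (-1.83, adjusted p = 0.175). Immediate early and MAP kinase feedback genes were higher in 7 of 20 and lower in 1, 5 and 0 of them in both fits, and higher in 4 without mouse 3. Klf6 rose by 1.59 ± 0.40, and by 2.75 in the number-adjusted fit. Junb rose by 1.67 ± 0.54, a call lost in the number-adjusted fit (2.2, adjusted p = 0.0502) and without mouse 2 (adjusted p = 0.0893) or 3 (0.145), and Dusp5, a phosphatase of ERK, by 2.12 ± 0.54 (number-adjusted 2.77), lost without mouse 3 (0.79, adjusted p = 0.343). Spry4, an inhibitor of the same pathway, fell by 1.14, but the number-adjusted difference was -0.21 and the call was lost without any 1 of the ANIT mice (adjusted p from 0.0604 to 0.122).

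**Figure D3:**
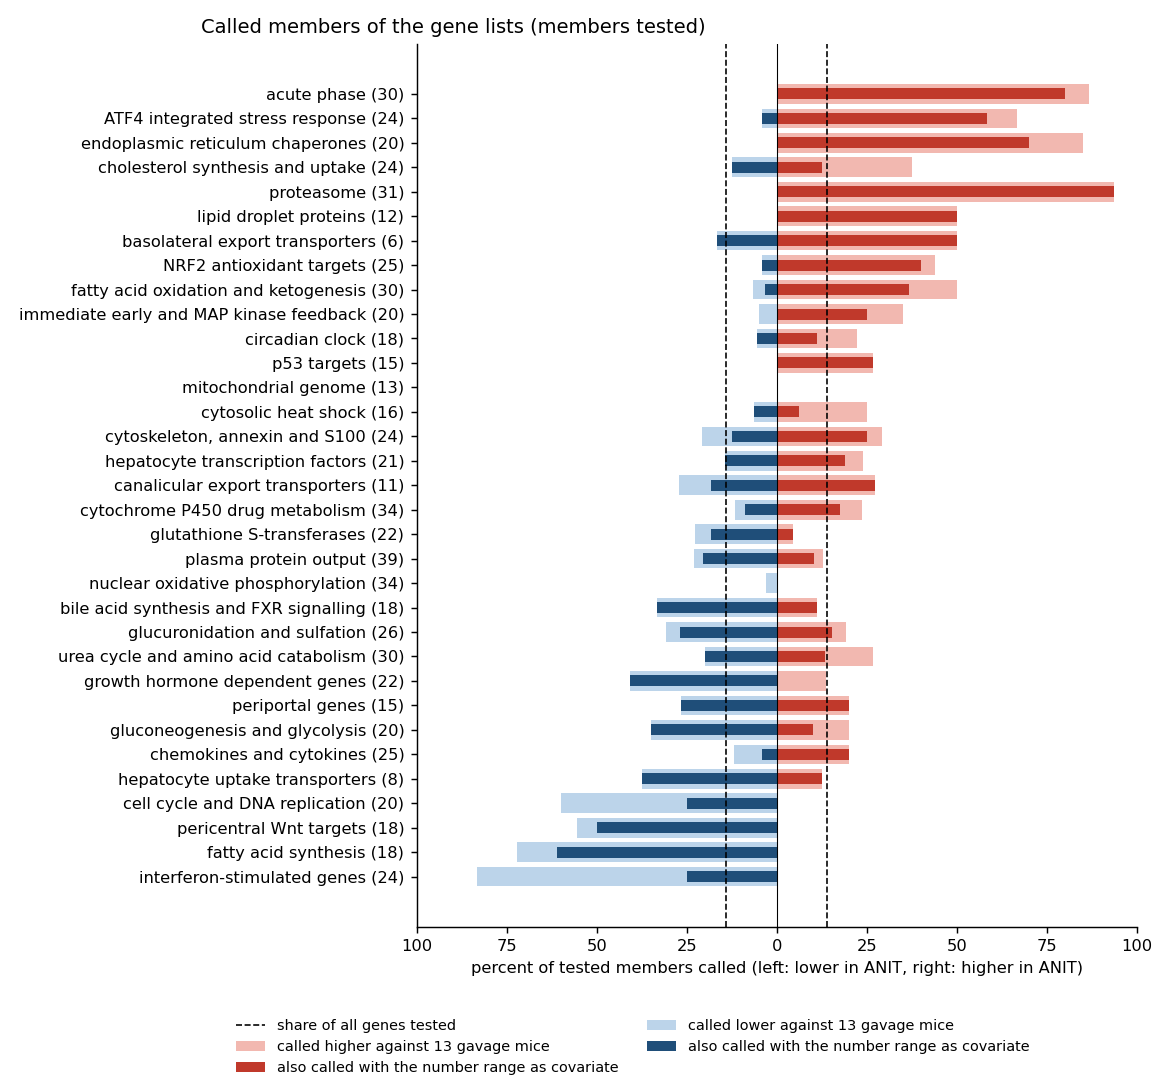
Share of the tested members of each function list that was called, to the right for higher and to the left for lower in ANIT, with the number of tested members in brackets. Pale bars count calls against the 13 gavage mice, dark bars those also called with the number range as covariate, and dashed lines mark the shares over all genes tested (14.0% and 14.2%). Proteasome (29 of 31) and acute phase genes (26 of 30) have the longest bars to the right, and most of the bar of the interferon-stimulated genes is pale.

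Acute phase genes were higher in 26 of 30 members with 0 lower, 24 of them in both fits, and 17 with no overlap between the groups, beside 14.0%, 7.92% and 3.99% of all genes tested. The median log2 fold change was 1.78, or 2.31 in the number-adjusted fit. Saa1, serum amyloid A, stood at 709.8, 5335, 11271 and 7406 CPM against 68.7 to 2082 CPM (median 196). Mouse 1 lay below gavage mouse 18 and above the other controls, and the other ANIT mice lay above all controls. The rise was 4.05 ± 0.68 (4.74 without gavage mouse 18) and 5.73 in the number-adjusted fit. Saa2, a near copy of Saa1 with which reads may be shared, rose by 4.12 ± 0.94 (5.26 without gavage mouse 18, 3.5 without ANIT mouse 3) and by 7.09 in the number-adjusted fit. Fga, a chain of fibrinogen, stood at 3496, 8387, 11729 and 10711 CPM against 1213 to 2194 CPM (median 1815), above every control, and rose by 2.23 ± 0.19 (edgeR adjusted p = 6.63e-07). Serpina3n, a protease inhibitor, stood at 365, 2885, 3440.5 and 3218 CPM against 188 to 454 CPM (median 264), with mouse 1 alone inside the controls (3.14 ± 0.30). Socs3 and Stat3, feedback inhibitor and mediator of interleukin 6 signals, rose by 3.41 ± 0.54 and 1.35 ± 0.22, both above every control. Of the 4 members that were not called, Hamp2, of the hepcidin family, had the only negative difference (-1.19 ± 0.65) and was called lower in the number-adjusted fit (-2.17, edgeR adjusted p = 0.0138). The summed level of the 11 neutrophil markers ran from 14.2 to 46.2 CPM in the ANIT mice, from 2.97 to 4.49 CPM in the gavage mice numbered 1 to 4 and from 3.36 to 64.7 CPM in the others, and its part in the acute phase levels was not tested. Of these markers, Ly6g and Camp were at 0 in all ANIT mice, and 5 of the 11 passed the filter on low counts. Of those 5, 1 was called higher against all controls and 3 in the number-adjusted fit, with 0 lower.

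Chemokines and cytokines were higher in 5 of 25 and lower in 3, 5 and 1 of them in both fits. The number-adjusted fit called 10 higher and 1 lower, and the median log2 fold change of the list turned from -0.22 to 0.50. Without ANIT mouse 3 the counts were 3 and 2. Over all genes tested 14.0% were higher and 14.2% lower (9.17% and 9.90% in the number-adjusted fit). Cxcl1, which attracts neutrophils, stood at 28.6, 104, 84.2 and 139 CPM against 0.408 to 30.7 CPM (median 7.05). Mouse 1 lay just under gavage mouse 18 and the others above all controls, for a rise of 3.19 ± 0.61 and 5.16 in the number-adjusted fit, where the controls held 0.408 to 4.41 CPM. Icam1, an adhesion molecule, rose by 1.72 ± 0.26 and Ccl6, a chemokine of myeloid cells, by 1.36 ± 0.31 (2.46 in the number-adjusted fit). Cxcl9, induced by interferon gamma, fell by 2.91 (4.04 without mouse 1, 2.22 in the number-adjusted fit). Il15 fell by 3.33, a call lost in the number-adjusted fit (-1.92, adjusted p = 0.19), without mouse 1 (0.0529) and without mouse 3 (0.0537). Cxcl2 was not called against all controls (2.6, 0, 7.41 and 0.148 CPM against 0 to 3.77 CPM, median 0.253) and was called higher in the number-adjusted fit (6.13, edgeR adjusted p = 0.0204). Its controls numbered 1 to 4 held at most 2.15 estimated counts each, so that the size of that value rests on few counts.

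Interferon-stimulated genes depended on which controls were used. Against all 13 gavage mice 20 of 24 members were lower and 0 higher, beside 14.2% of all genes tested that were lower, with a median log2 fold change of -1.56, and 6 of them stayed called in the number-adjusted fit, where the median was -0.88. Against the gavage mice numbered 1 to 4 alone 4 were lower, and against those numbered above 4 alone 20. Isg15, a ubiquitin-like modifier, stood at 6.93, 4.42, 6.26 and 4.49 CPM in the ANIT mice, at 8.83 to 16.8 CPM in the controls numbered 1 to 4, and 8.83 to 39.7 CPM (median 31.2) over all controls. The ANIT mice lay below every control, by 2.25 in the fit to all and by 1.35 in the number-adjusted fit (edgeR adjusted p = 0.00165). Irf7 fell by 1.86 and 0.89, Ifit1 by 2.78 and 1.78 and Irgm1 by 1.08 and 0.85. Ifi44 fell by 2.93 (4.41 without mouse 1) and Gbp2 by 1.29 (not called without mouse 1, 2 or 3, adjusted p from 0.069 to 0.125), but the number-adjusted differences were -1.71 and -0.19 (adjusted p = 0.105 and 0.758). Summed Kupffer cell markers moved with the number range too, at 339 to 488 CPM in the controls numbered 1 to 4, 655 to 1025 CPM in the others and 407 to 498 CPM in the ANIT mice, and their part in the interferon result was not tested.

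**Figure D4:**
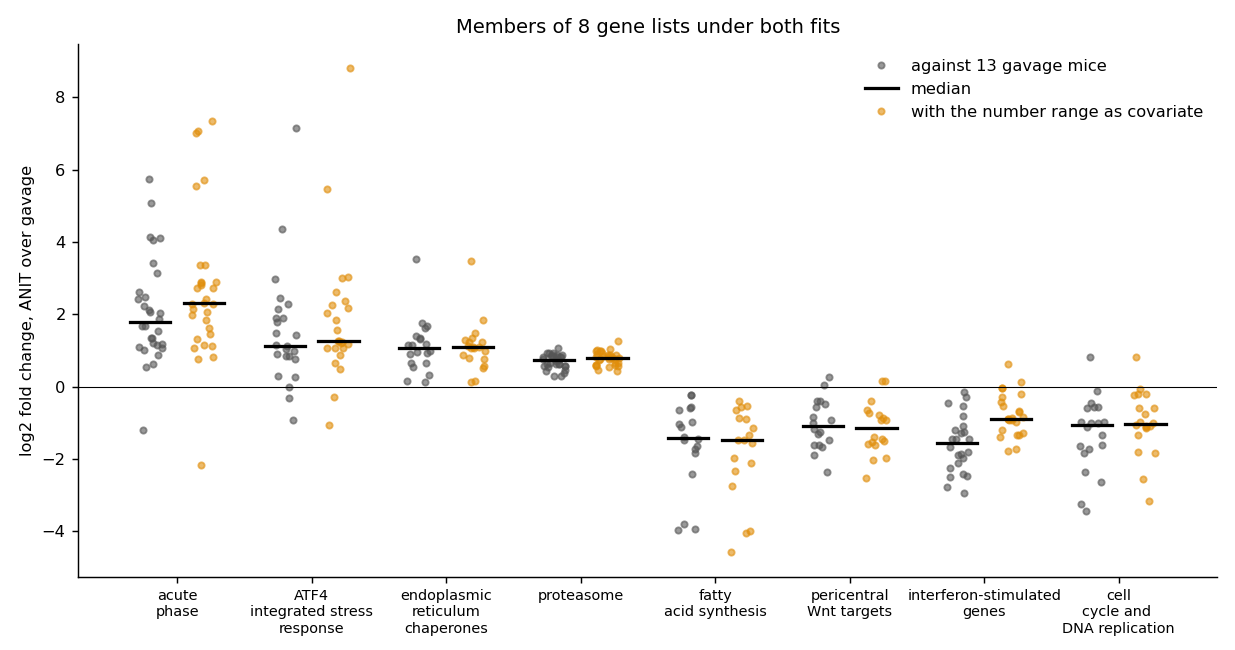
Log2 fold change of each tested member of 8 gene lists, ANIT over gavage, against all 13 gavage mice (grey) and with the number range as covariate (orange), with a black bar at the median. The medians of the 7 other lists lie on the same side of 0 at similar or larger size in both fits, while that of the interferon-stimulated genes moves from -1.56 to -0.88.

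Genes that depend on growth hormone were lower in 9 of 22 members and higher in 3, beside 14.2% and 14.0% of all genes tested. All 9 lower members stayed called in both fits (8.91% of all genes tested), and 0 of the higher ones did (7.92%). The counts were 1 higher and 8 lower without mouse 2, 0 and 7 without mouse 3 and 1 and 7 without mouse 4. Besides Hsd3b5 and Selenbp2, Igfals, the carrier subunit of insulin-like growth factor 1, stood at 6.99, 34.6, 13.4 and 24.2 CPM against 58.1 to 168 CPM (median 107), below every control, and fell by 2.4. Elovl3, a fatty acid elongase of male liver, fell by 3.22 (4.27 without mouse 1) and Ghr, the growth hormone receptor, by 0.94. Igf1 was not called against all controls (-0.54 ± 0.23, edgeR adjusted p = 0.0969) and was lower in the number-adjusted fit (-1.01, adjusted p = 0.00138). Cish, a feedback inhibitor of cytokine receptors, rose by 2.19 ± 0.59, a call lost in the number-adjusted fit (1.5, adjusted p = 0.192) and without mouse 3 (0.0865).

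Drug-metabolising P450 genes divided into 8 higher and 4 lower of 34, 6 and 3 of them in both fits. Without mouse 1 the counts were 10 higher and 8 lower, with the list's median log2 fold change at -0.24 in place of 0.07, and without mouse 4 they were 5 and 3. Over all genes tested 14.0% were higher and 14.2% lower, or 7.92% and 8.91% in both fits. Cyp2a5, which oxidises coumarin and rises in many liver injuries, stood at 2257, 1986, 1326 and 2148 CPM against 190.4 to 416 CPM (median 299.9) and rose by 2.69 ± 0.16 (edgeR adjusted p = 1.02e-08). Its reads may be shared with Cyp2a4. The ANIT mice lay far above every control. Por, the reductase that feeds electrons to all microsomal P450 enzymes, stood at 441, 507, 428 and 628 CPM against 62.2 to 207 CPM (median 159.7), also without overlap, and rose by 1.77 ± 0.20. Cyp3a13 rose by 1.64 ± 0.22. Cyp2b10, a target of the receptor CAR, rose by 2.12 ± 0.37, mostly in mouse 1 (352, 91.7, 36.6 and 33.3 CPM), and by 0.87 without that mouse. Cyp1a1, a target of the aryl hydrocarbon receptor, rose by 2.01 ± 0.51, a call lost without mouse 4 (0.94, adjusted p = 0.199). Cyp2d40 fell by 1.33 and Cyp2f2, a periportal enzyme, by 0.88, both below every control. Cyp2e1 was not called (0.27 ± 0.23, edgeR adjusted p = 0.409) and was called higher without mouse 1 (0.53, adjusted p = 0.0275). Glucuronidation and sulfation genes were higher in 5 of 26 and lower in 8, 4 and 7 of them in both fits. Ugt1a1, which conjugates bilirubin and shares its last exons with the other Ugt1a genes, rose by 0.69 ± 0.10. Sult1e1, the estrogen sulfotransferase, rose by 4.08 ± 0.68 (2.33 without mouse 1) and Sult1c2 fell by 2.86, from a control median of 1.48 CPM.

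Glucose genes were higher in 4 of 20 and lower in 7, 2 and 7 of them in both fits, and higher in 2 without mouse 3, beside 14.0% and 14.2% of all genes tested. G6pc, glucose-6-phosphatase, fell by 1.97 (2.68 without mouse 4), and Pklr, liver pyruvate kinase, by 1.56. Ldha, lactate dehydrogenase, rose by 1.3 ± 0.21, with mouse 1 within the controls (485, 1471, 1305 and 1578 CPM against 369.9 to 643 CPM, median 479.7). Igfbp1, a secreted inhibitor of insulin-like growth factors, rose by 2.1 ± 0.64, a call lost in the number-adjusted fit (2.28, adjusted p = 0.101) and without mouse 3 (1.06, adjusted p = 0.317). Urea cycle and amino acid genes gave 8 higher and 6 lower of 30, and 4 higher and 9 lower in the number-adjusted fit. Mat1a, which makes S-adenosylmethionine, stood at 1076, 4860.2, 2960.1 and 6233 CPM against 807 to 1414 CPM (median 1089.7) and rose by 1.77 ± 0.25. Mouse 1 lay within the controls and the others above them. Oat, ornithine aminotransferase, fell by 1.3 below every control.

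Genes that Wnt signals maintain around the central vein were lower in 10 of 18 members and higher in 0, 9 of them in both fits, beside 14.2% and 8.91% of all genes tested, at a median of -1.08, and 1 was called higher without mouse 1. Lgr5, an R-spondin receptor, stood at 0.40, 0.518, 0.345 and 0.543 CPM against 1.1 to 3.63 CPM (median 2.31). Axin2, a general Wnt target, stood at 0.666, 1.93, 1.09 and 1.33 CPM against 2.11 to 6.07 CPM (median 3.98). Both were below every control, with falls of 2.37 and 1.62. Gulo, of vitamin C synthesis, fell by 1.89 and Notum, which inactivates Wnt proteins, by 1.6. Glul, glutamine synthetase of the innermost pericentral hepatocytes, was not called (-0.91 ± 0.35, edgeR adjusted p = 0.0605), with mouse 1 far below the others (35.4, 369, 279.6 and 313 CPM against 300.4 to 595 CPM, median 464), and was called lower without mouse 1 (-0.55) or mouse 2 (-1.17), with DESeq2 (adjusted p = 0.0194), with library total scaling (-1.12, edgeR adjusted p = 0.0367) and with the filter at a mean of 5 CPM (0.0381). In bulk tissue, fewer cells of a type and less RNA per cell cannot be told apart. Periportal genes were higher in 3 of 15 and lower in 4, all 7 in both fits. Hsd17b13, a lipid droplet enzyme, rose by 0.82 ± 0.13, and Aldh1b1, which oxidises aldehydes, fell by 1.04.

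Genes of plasma proteins, transcription factors, the clock and the cytoskeleton were called in both directions. Their counts stand beside 14.0% higher and 14.2% lower over all genes tested, and nothing particular to these lists is read from them. Plasma proteins outside the acute phase were higher in 5 of 39 and lower in 9, 4 and 8 of them in both fits, and lower in 4 without mouse 3. Apoa5, a regulator of plasma triglycerides, rose by 1.24 ± 0.18, Rbp4, the retinol carrier, by 0.79 ± 0.13, Ttr, transthyretin, fell by 1.09 below every control, and F11, coagulation factor XI, fell by 1.22 (1.91 without mouse 1). Alb, albumin, was not called (0.04 ± 0.25), at 74409, 32603, 31704 and 36496 CPM against 26327 to 70190.0 CPM (median 41314), and its difference was negative, at -0.35, in the number-adjusted fit and, at -0.16, with library total scaling. Hepatocyte transcription factors were higher in 5 of 21 and lower in 3, 4 and 3 of them in both fits. Hnf4a rose by 0.90 ± 0.12 with no overlap, Nr1i2, the xenobiotic receptor PXR, by 0.88 ± 0.16, and Cebpa fell by 0.84 with no overlap. Of 18 clock genes 4 rose and 1 fell, 2 and 1 of them in both fits. Per1 and Per2 rose by 1.57 ± 0.23 and 1.49 ± 0.23 above every control, and Npas2 fell by 3.0 below every control. Ciart rose by 2.02 ± 0.61, a call lost in the number-adjusted fit (2.06, adjusted p = 0.116) and without mouse 4 (0.107). The hour of sampling is not among the labels. Cytoskeleton, annexin and S100 genes were higher in 7 of 24 and lower in 5, 6 and 3 of them in both fits. Actg1, a cytoplasmic actin, rose by 1.75 ± 0.29, with mouse 3 highest at 1585 CPM (1.01 without it), Krt18, a hepatocyte keratin, rose by 1.15 ± 0.20, and Lgals1, galectin 1, fell by 1.98. Mitochondrial genome transcripts were called in 0 of 13 members (edgeR, 1 at an unadjusted p under 0.05; called were 4 against the gavage mice numbered above 4 alone and 1 without ANIT mouse 1). Nuclear genes of oxidative phosphorylation were lower in 1 of 34 and higher in 0, with 2 higher and 0 lower without ANIT mouse 1 and 0 and 2 without gavage mouse 18. That gene, Ndufs1, fell by 0.35, a call lost in the number-adjusted fit (-0.37, adjusted p = 0.115) and without ANIT mouse 1, 3 or 4 or any gavage mouse numbered 1 to 4.

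**Figure D5:**
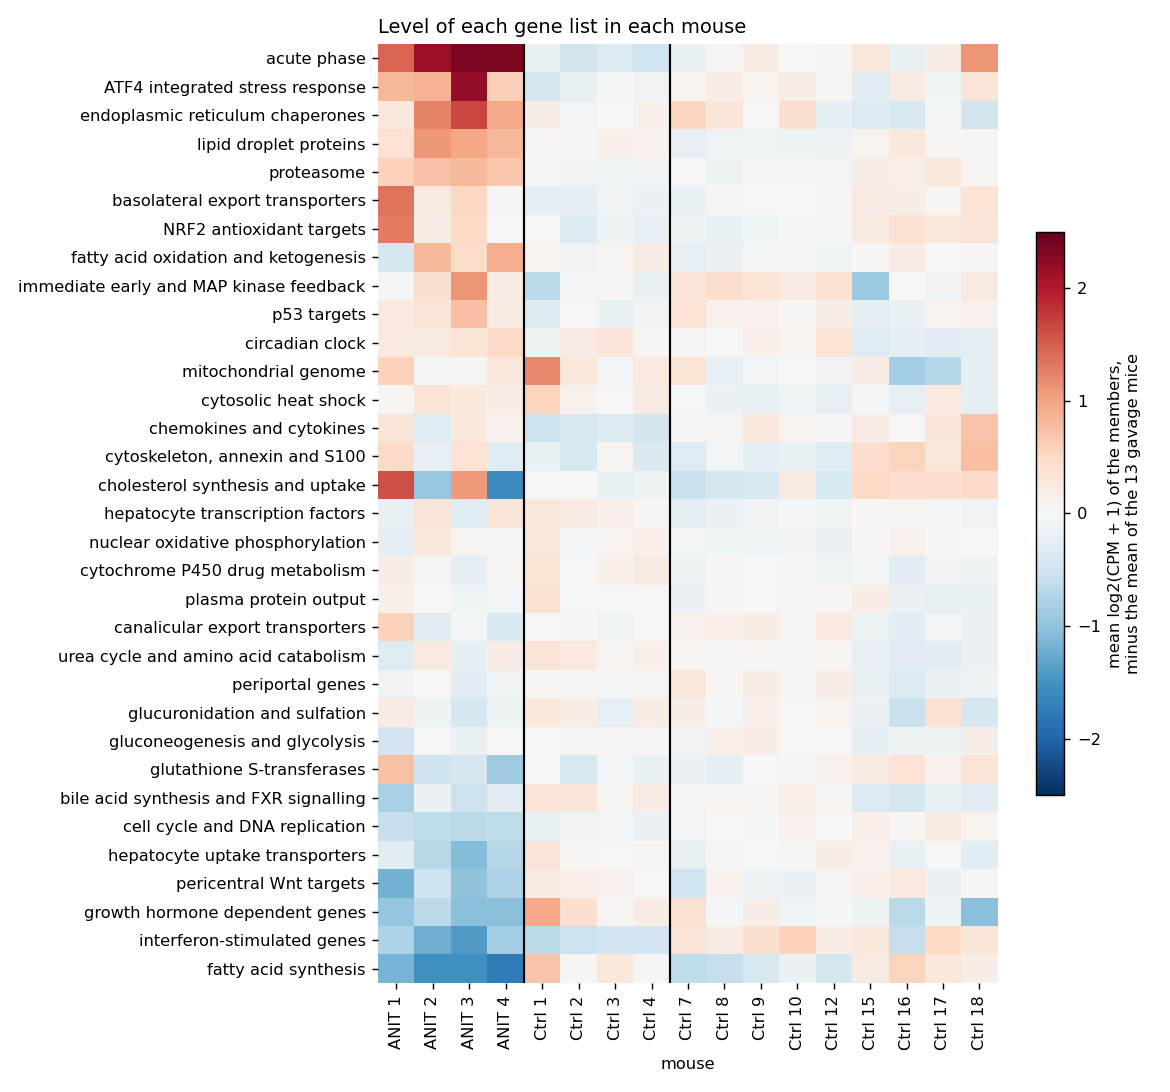
Mean log2(CPM + 1) over the tested members of each function list in each mouse, minus the mean of the 13 gavage mice, from blue (lower) to red (higher), with ANIT mice 1 to 4, gavage mice 1 to 4 and the 9 other gavage mice parted by black lines. Cholesterol genes stand at 1.61 and 1.07 in ANIT mice 1 and 3 and at -0.94 and -1.59 in mice 2 and 4, and gavage mouse 18 stands at 1.10 in the acute phase list.

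Markers of the cell types of liver were read in the same libraries, and counts of called markers stand beside 14.0% higher and 14.2% lower over all genes tested. The 8 hepatocyte markers were all present and summed to 51588 to 105404 CPM in the ANIT mice, against 76545 to 109526 CPM in the controls numbered 1 to 4 and 47576 to 72305 CPM in the others. ANIT mouse 1 was highest and mice 2 to 4, at 51588 to 56447 CPM, lay below every control numbered 1 to 4. The cholangiocyte markers, which mark the cells that ANIT is known to injure, were sparse, at a summed 19.9 to 34.6 CPM, against 23.5 to 36.3 CPM in the controls numbered 1 to 4 and 39.6 to 103 CPM in the others. Of 8 tested, 3 were lower and 1 higher, 1 and 1 of them in both fits, and 0 were called in either direction against the gavage mice numbered 1 to 4 alone. Sox9, which injured hepatocytes also express, stood at 1.87, 4.19, 8.85 and 0.987 CPM against 0.801 to 2.27 CPM (median 1.31), and rose by 1.5 ± 0.37 (number-adjusted 2.13), a call lost without mouse 3 (0.75, adjusted p = 0.157). Pkhd1, of the cholangiocyte cilium, fell by 1.38 below every control. Krt7, a duct keratin, fell by 1.61 and Spp1, osteopontin, by 1.19, and neither was called in the number-adjusted fit (-1.75 and -0.50, adjusted p = 0.0699 and 0.346) or without ANIT mouse 2, 3 or 4, nor Krt7 without mouse 1. Neutrophil markers were called in 1 of 5 tested, Retnlg (2.12 ± 0.71, number-adjusted 4.28), a call lost without mouse 1 (adjusted p = 0.139) or 3 (0.0932). In the number-adjusted fit 3 were higher, among them S100a8 (4.38), which stood at 16.5, 5.32, 8.96 and 11.6 CPM, against 0.136 to 0.862 CPM in the controls numbered 1 to 4 and up to 19.8 CPM in gavage mouse 18. Among 12 Kupffer cell markers 2 were higher and 4 lower, 2 and 1 of them in both fits. The counts were 1 and 2 without ANIT mouse 1, 2 or 3, 1 and 4 without mouse 4 and 1 and 9 against the gavage mice numbered above 4 alone. Marco, a scavenger receptor, stood at 21.7, 23.95, 38.5 and 90.8 CPM against 2.79 to 21.7 CPM (median 14.7), and rose by 1.69 ± 0.50 (number-adjusted 3.68, and 1.05 and not called without mouse 4, adjusted p = 0.167). Folr2 fell by 1.39 in the fit to all controls and by 0.95 in the number-adjusted fit, and Clec4f by 1.04 only in the fit to all controls (number-adjusted -0.48, adjusted p = 0.194). Cd163, a receptor for haemoglobin complexes, rose by 0.71 ± 0.25 (number-adjusted 1.33), a call lost without ANIT mouse 1, 2 or 3 or gavage mouse 1, 2, 3, 4 or 18.

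Stellate cell and myofibroblast genes were lower in 7 of 15 and higher in 0, 4 of them in both fits, and lower in 4 without mouse 3. Col3a1, a fibrillar collagen, stood at 2.8, 3.29, 3.22 and 3.41 CPM against 15.9 to 60.1 CPM (median 27.4), far below every control, and fell by 3.22 (edgeR adjusted p = 2.58e-06). Col1a1 fell by 2.16, and Acta2, smooth muscle actin, by 2.38, which was not called in the number-adjusted fit (-1.94, adjusted p = 0.06). Sinusoidal endothelial markers were higher in 1 of 12 and lower in 3, in both fits. Lyve1, a hyaluronan receptor, stood at 16.3, 15.2, 20.2 and 20.2 CPM against 2.84 to 7.43 CPM (median 5.06), above every control, and rose by 1.89 ± 0.20, while Stab2, a scavenger receptor of the same cells, fell by 0.73. B cell markers were lower in 3 of 5 tested, in both fits. Ighm, the heavy chain of IgM, stood at 0.666, 0.80, 1.26 and 1.33 CPM against 2.63 to 6.9 CPM (median 4.28), below every control, and fell by 2.14. Cd79a, of the B cell receptor, was at 0.20, 0, 0 and 0.148 CPM, at most 2.92 estimated counts a library, and at 0.200 to 0.979 CPM in the controls. T and NK cell genes were lower in 3 of 8 tested, 0 of them in both fits and 1 without mouse 3. Gzmb, granzyme B, was under 1 estimated count in each ANIT mouse and at 0 to 2.24 CPM in the controls, and was not called in the number-adjusted fit (-1.93, adjusted p = 0.161). Monocyte and recruited macrophage markers depended on the controls used, with 1 of 9 tested lower in the fit to all and 2 higher and 0 lower in the number-adjusted fit, where the median log2 fold change was 0.93 in place of -0.41. Their summed level was 64.5 to 119 CPM in the ANIT mice, against 43.2 to 56.3 CPM in the gavage mice numbered 1 to 4 and 70.3 to 158 CPM in the others. Itgam, an integrin of myeloid cells, was called higher in the number-adjusted fit (2.11, edgeR adjusted p = 0.0148) but not against all controls (1.15 ± 0.45). Without gavage mouse 18 it was called higher (1.48, edgeR adjusted p = 0.00392). Ly6c2 fell by 3.64 in the fit to all controls, a call lost in the number-adjusted fit (-1.33, adjusted p = 0.37) and without ANIT mouse 2 (0.0638), 3 (0.0719) or 4 (0.0604), and by 5.7 without mouse 1. Dendritic cell markers were called in 0 of 2 tested (edgeR, 1 at an unadjusted p under 0.05). Of 5 red blood cell markers 1 was lower and 0 higher, and 4 had a positive difference that was not called. The lower gene was Alas2, a heme enzyme of red cell precursors, which fell by 1.52 below every control.

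ANIT was also set directly against methylene dianiline (MDA), the other bile duct toxicant given by gavage (7 mice, same strain, sex, age and time). This comparison shares no control mice with the one above. edgeR called 0 of 13360 genes (0.00%), with 1253 at an unadjusted p under 0.05, while DESeq2 called 78. All ANIT mice are numbered 1 to 4, while the MDA mice also include numbers 7, 8 and 12. With the mice numbered 1 to 4 alone edgeR called 0 of 12494 genes. All ANIT mice lay above every MDA mouse in 46 genes (0.344%) and below in 66 (0.494%). Levels were close in some genes and uncertain in others. Scd1 differed by -0.08 with an approximate 95% interval of -0.62 to 0.47, and Cdkn1a by 0.02 (-0.60 to 0.63). For Cyp7a1 the interval ran from -2.82 to 4.56 and for Slc51b from -3.30 to 0.60. These intervals use normal quantiles, which makes them too narrow for groups of 4 and 7 mice. A p above the threshold does not show that the toxicants act alike. Leaving out ANIT mouse 1 gave 54 called genes of 13765 (0.392%), 41 higher (0.298%) and 13 lower (0.0944%) in ANIT. Among them were 11 of 20 endoplasmic reticulum chaperones and 8 of 30 acute phase genes, all higher in ANIT. Creld2 was 2.30 ± 0.21 higher in those 3 mice (edgeR adjusted p = 0.00424) and 1.95 higher with all 4 (0.403). Derl3 was 3.12 ± 0.41 higher in the 3 mice (0.0109) and 2.82 higher with all 4 (0.403), and Mt1 2.12 ± 0.29 (0.0152) and 1.78 (0.403). These genes were chosen after their values were seen.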

How the data were processed

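RNA-seq of livers from 4 ANIT and 13 gavage vehicle mice was analysed, with 7 MDA mice for the direct comparison. The authors deposited a table of estimated counts per gene, made before deposit from the reads of 57 libraries. Salmon 1.6.0, R 4.1.3 and GRCm39 are named in the submitters' processing notes, without role or order, and how the counts were scaled for length is not given in the sources used here. Of 54307 gene IDs, 51482 matched a symbol. Estimated counts were rounded to whole numbers and tested with edgeR 4.0.16 in R 4.3.3 (filterByExpr, TMM, quasi-likelihood test, two-sided, Benjamini-Hochberg adjustment). Only the groups compared entered a fit. DESeq2 1.42.0, library total scaling, other filters, other sets of controls, a replicate block and leaving out single mice were alternatives. Single values per mouse were compared by an exact permutation test. Tables and figures were made with Python 3.11.15, pandas 2.3.3, scipy 1.17.1 and matplotlib 3.10.9.

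The genes with the largest changes were the 12 rises and 12 falls of largest size among genes called in both fits in the same direction, with all ANIT mice beyond every gavage mouse and a mean of at least 5 CPM in the higher group. In each gene list the members with the largest called rise and fall were named, and other members freely. Some genes that this rule names are not reported here. The members and lists were chosen with earlier results of these data known. The scripts were tested on simulated data. Totals of 15188909 to 28093184 limit the precision of low genes, and the deposited values carry no interval.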

Additional observations from a re-analysis of the deposited data

Results flagged for a closer look

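Among 191 genes named or listed with values, 26 had 1 ANIT mouse far from the other 3 by Dixon's criterion, which chance meets in about 1 of 20 groups. Mouse 1 was the outlying mouse in 17 of them and mouse 3 in 9. Mouse 1 had the highest level for the glutathione S-transferases Gstm3 (2732 CPM), Gsta1 (375 CPM) and Gstm6 (83.2 CPM), the sulfotransferase Sult1e1 (14.6 CPM), and the transporters Abcb4 (163 CPM), Abcg8 (63.0 CPM), Abcg5 (52.1 CPM) and Slco1a1 (13.2 CPM). It was also highest for Alb (74410 CPM), F11 (45.2 CPM), Notum (15.7 CPM), Col1a1 (1.599 CPM), Fam198a (0.866 CPM), Ifi44 (0.799 CPM) and Hsd3b5 (0.400 CPM). It was lowest for Cidec (21.9 CPM) and Il15 (0.0666 CPM).

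Mouse 3 had the highest level for the stress genes Hmox1 (525 CPM), Chac1 (187 CPM), Sesn2 (35.6 CPM) and Mthfd2 (23.1 CPM). It was also highest for Lcn2 (3051 CPM), Igfbp1 (1815 CPM), Actg1 (1585 CPM) and Dusp5 (5.63 CPM), and lowest for Abcc6 (22.7 CPM).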

How the results depend on the processing

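Against all 13 gavage mice 3967 genes were called. The count was 1688 against gavage mice 1 to 4 alone and 2540 to 4068 without 1 of ANIT mice 1 to 4 or gavage mice 1 to 4 and 18, lowest without ANIT mouse 3. The other gavage mice were not left out singly. With a change of at least 1 log2 unit, 1680 genes became 1044 against gavage mice 1 to 4 alone, 746 with a mean of at least 5 CPM, and 1174 to 1889 without 1 of those mice. A replicate block on the shared numbers gave 962 called genes, 748 of them with at least 1 log2 unit. Deviations from the group means correlated at 0.142, -0.007, 0.027 and 0.030 between same-numbered mice, and at -0.094 to 0.066 between differently numbered mice. With 4 mice per group these values cannot settle whether the numbers pair the mice. Against MDA the count of 0 became 78 with DESeq2 and 0 to 54 without 1 ANIT mouse (54 without ANIT mouse 1, 2 without ANIT mouse 3). The difference in mitochondrial share turned to -2.52 points against gavage mice 1 to 4 alone and ranged from -0.0128 to 2.54 points without 1 ANIT mouse, negative without mouse 1. None of the genes that turned sign was called against all controls. With 1 ANIT mouse or 1 of gavage mice 1 to 4 and 18 left out Gsta1 ranged from -1.80 to 2.12, Gstm3 from -2.13 to 2.53, Cyp8b1 from -1.13 to 0.090, Abcb11 from -0.78 to 0.41 and Alb from -0.35 to 0.16, each turning sign without ANIT mouse 1. Abcc2 was 0.047 without ANIT mouse 2 and 0.0080 without mouse 3. With the replicate block Gstm3 was -0.21, Abcb11 -0.43 and Alb -0.43. With library total scaling 13 calls of described genes were lost, those of Calr, Psmb7, Nr0b2, Abcc3, Sqle, Hmgcs1, Cyp4a14, Btg2, Mdm2, Marco, Cd163, Retnlg and Junb, and 2 were gained, Igf1 (-0.70, adjusted p = 0.0039) and Glul (-1.12, 0.0367), both lower. With that scaling Abcb11 was -0.16 and Alb -0.16. Alb was also -0.36 against gavage mice 1 to 4 alone, -0.35 in the number-adjusted fit, -0.013 with the filter at 5 CPM and -0.010 without gavage mouse 18. The cause was not tested. Leaving out gavage mouse 18 and using the mice numbered above 4 alone were chosen after seeing the data. Of 191 genes described, 162 kept direction and side of the threshold in the number-adjusted fit and 103 with the replicate block. Against gavage mice 1 to 4 alone 136 of 182 did, 40 calls were lost, 5 were gained and 1 uncalled difference, that of Alb, turned sign. The calls lost there were those of Mthfd2, Atf3, Sesn2, Nupr1, Vldlr, Creld2, Gstm6, Mgst3, Cyp2b10, Cyp1a1, Nr0b2, Abcb4, Abcg8, Abcc3, Slco1a4, Sqle, Hmgcs1, Cyp4a31, Cpt1a, Igfbp1, Cish, Socs3, Cxcl9, Gbp2, Ifi44, Btg2, Mdm2, Clec4f, Sox9, Spp1, Pkhd1, Acta2, Actg1, Bag3, Dusp5, Spry4, Ndufs1, Stip1, Ciart and F11. With 4 ANIT mice, small changes in genes of low count may not be detectable. In simulated counts edgeR called 46.5% of changes of 1 log2 unit with 13 controls and 15.3% with gavage mice 1 to 4 alone. How far this accounts for the lost calls was not tested.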
